A study of Homo sapiens with 15 samples.

Results

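Enzymes that place acetyl groups on histone lysines, and the enzymes that take them off, were followed as messenger RNA in OCI-AML5. This established line, derived from acute myeloid leukaemia, was cultured here in medium containing GM-CSF, a cytokine that myeloid cells need. The 31 genes were picked by symbol out of 19604 protein-coding genes, and all were found in both deposited tables. They comprise 11 HDAC genes, 7 sirtuin genes, and 13 genes of acetyltransferases and of coactivators counted among them. RNA sequencing gave 15 libraries, 3 in each of 5 groups. In the drug experiment cells received 1000 nM ARV-825 for 4 h, 1000 nM OTX015 for 4 h, or no treatment (control). In the second experiment cells were transduced with RUNX1 shRNA or with a non-targeting shRNA (shNT) and were exposed for 72 h. All groups are the same leukaemia line, and the labels name no vehicle in control and do not say whether 1 or several RUNX1 shRNA sequences were used. Runx3 stands in the titles of the RUNX1 shRNA libraries, which are grouped here by their treatment label.

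Acetylation neutralises the positive charge of histone tails and makes marks that bromodomain proteins read. BET proteins are such readers: they bind acetylated histones at promoters and enhancers and bring in the machinery of transcript elongation, and leukaemia cells lean on them for MYC expression. OTX015 occupies the bromodomains of BET proteins, while ARV-825 joins OTX015 through a linker to a ligand of cereblon, the substrate receptor of a ubiquitin ligase, and thereby marks BET proteins for degradation. Histone deacetylases fall into the zinc-dependent classes I, IIa, IIb and IV and the NAD-dependent sirtuins. The acetyltransferases fall into the GCN5 and PCAF pair, the MYST family, the p300 and CBP pair and the cytoplasmic HAT1. The SRC coactivators NCOA1, NCOA2 and NCOA3 bind nuclear receptors, recruit p300 and CBP and have been reported to have weak acetyltransferase activity.

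Values were read as FPKM, which divides the fragments of a gene by its length and by library size and so puts long and short genes on 1 scale. The number of reads behind a library is unknown. RUNX1 had 37.2, 42.9 and 36.0 FPKM in the RUNX1 shRNA libraries, against 69.8, 72.2 and 69.8 FPKM in the shNT libraries (log2 change -0.86, adjusted p = 3.71e-05, limma). MYC, the classical transcript lost upon BET inhibition, changed by -3.59 with ARV-825 and by -1.34 with OTX015, and HEXIM1, a standard transcript gained, changed by 2.05 and 2.92 on the log2 scale. Of 13 myeloid identity genes, 12 reached a mean of 1 FPKM in both tables. In the drug experiment 1 of 7 erythroid genes, 2 of 5 genes of megakaryocytes and 1 of 5 of B cells did so, as did 3 of 6 lymphocyte (T or NK) genes (summed level 46.9 to 71.5 FPKM over the libraries) and 0 of 7 genes of epithelium or fibroblasts, and the part of the lymphocyte genes in any result was not tested. ARV-825 replicate 1 listed 6 of 13 mitochondrially encoded genes at 0, but no member gene was at 0 in any library. In RNA from whole cultures, fewer cells of a type and less RNA per cell cannot be told apart.

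In control cells the deacetylase RNAs were led by the class I genes HDAC2, HDAC1 and HDAC3, while HDAC8 of that class averaged 12.2 FPKM. HDAC2, which with HDAC1 forms the catalytic core of the SIN3, NuRD, CoREST and MiDAC repressor complexes, had 107, 113 and 112 FPKM and stood above all other members. It was followed by HAT1, which acetylates newly made histone H4 before it is laid into chromatin, at 63.1, 65.1 and 63.0 FPKM, and by HDAC1 at 55.2, 54.5 and 56.1 FPKM. HDAC3, the enzyme of the NCOR and SMRT corepressors, came next at 36.2 ± 0.253 FPKM (mean ± SD, n = 3), and the control libraries of these leading 4 genes did not overlap. Of the other members, 13 averaged 10 to 30 FPKM and 12 averaged 1 to 10 FPKM, and most neighbours in the order overlapped. At the low end stood KAT2B (PCAF) at 2.35, 2.69 and 2.60 FPKM, HDAC11 at 0.692, 0.682 and 0.844 FPKM and SIRT4 at 0.488, 0.661 and 0.726 FPKM. Over all libraries of either table HDAC11 and SIRT4 averaged under 1 FPKM and were left out of the tests, so 29 members were tested. HDAC2 also had the highest mean of the members with ARV-825, with OTX015 and in both shRNA groups, although with ARV-825 its libraries overlapped those of HDAC1.

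Sequence upstream of the start was read for 26 members from RefSeq promoters (GRCh38.p14), with part of the genome left out. That build differs from the hg19 build listed for the deposited values. Of the 26 members, 17 had a single annotated start. The windows of 4 of the 17, picked for their values below, are shown as the 250 bases before the start, on the strand of the gene. Other single-start members with large changes, such as NCOA3 and EP300, are not shown. KAT5 had the largest fall with ARV-825, KAT2A was the called member highest with ARV-825 relative to OTX015, SIRT1 rose with both compounds and HDAC7 had the largest fall among the deacetylases. Capitals mark matches, on either strand, to CACGTG (the E-box read by MYC and its relatives), TGTGGT (a RUNX motif), CCGGAAGT (an ETS motif), GGGCGG (a GC box), CCAAT or TGACGTCA (CRE).
KAT5, chr11:65712002-65712251, plus strand: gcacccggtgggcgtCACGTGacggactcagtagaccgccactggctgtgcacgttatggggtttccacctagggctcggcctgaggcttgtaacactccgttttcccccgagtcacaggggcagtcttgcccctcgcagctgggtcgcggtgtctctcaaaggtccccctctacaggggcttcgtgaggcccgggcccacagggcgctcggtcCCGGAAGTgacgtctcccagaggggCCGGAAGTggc
KAT2A, chr17:42121368-42121617, minus strand: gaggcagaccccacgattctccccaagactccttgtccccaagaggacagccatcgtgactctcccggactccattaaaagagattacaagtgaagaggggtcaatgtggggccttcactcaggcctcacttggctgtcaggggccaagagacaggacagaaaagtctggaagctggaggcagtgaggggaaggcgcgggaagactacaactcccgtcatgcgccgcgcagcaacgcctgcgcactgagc
SIRT1, chr10:67884406-67884655, plus strand: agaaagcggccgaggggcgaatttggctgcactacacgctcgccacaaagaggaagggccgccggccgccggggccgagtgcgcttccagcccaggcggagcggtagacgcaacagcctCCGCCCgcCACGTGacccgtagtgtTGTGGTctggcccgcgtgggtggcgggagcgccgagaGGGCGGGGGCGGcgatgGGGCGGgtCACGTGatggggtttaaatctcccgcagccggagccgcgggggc
HDAC7, chr12:47819904-47820153, minus strand: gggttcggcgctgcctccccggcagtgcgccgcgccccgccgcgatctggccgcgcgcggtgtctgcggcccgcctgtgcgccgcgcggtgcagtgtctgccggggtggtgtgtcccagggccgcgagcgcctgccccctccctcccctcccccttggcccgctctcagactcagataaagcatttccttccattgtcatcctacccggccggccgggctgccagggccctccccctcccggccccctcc
The KAT5 window held 1 E-box and 2 ETS motifs, and the SIRT1 window held 2 E-boxes, 1 RUNX motif and 4 GC boxes, of which 2 stand side by side. The KAT2A and HDAC7 windows held none of these motifs, and neither did those of NCOA3 and EP300. The background was 35116 annotated windows of the same length, which leave out the same part of the genome. Of these windows, 6.34% held the E-box, 10.98% the RUNX motif, 3.42% the ETS motif, 42.64% the GC box, 32.01% CCAAT and 1.65% the CRE. Of the 17 member windows, 2 held the E-box, 2 the RUNX motif, 4 the ETS motif, 7 the GC box, 4 CCAAT and 0 the CRE. Both member windows with an E-box are among the 4 shown, so the shown windows do not stand for the 17. The median background window was 58.0% G and C with 11 CpG dinucleotides. The values were 66.4% and 19 for KAT5, 58.8% and 11 for KAT2A, 72.0% and 32 for SIRT1, and 75.6% and 28 for HDAC7. Which start the cells used was not measured, and a match is no evidence of binding.

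The first question was how the transcripts of these enzymes stood after 4 h of BET degradation or BET inhibition. A change is the difference in log2(FPKM + 1) with its standard error (SE), given for the members described by library as change ± SE, from limma fitted to all tested genes with Benjamini-Hochberg adjustment, and a gene was called at adjusted p under 0.05. Standard errors of the members ran from 0.04 to 0.138 in the drug fit and from 0.027 to 0.161 in the shRNA fit. Both comparisons use the same 3 control libraries and are not independent of each other. With ARV-825, 19 of 29 members (65.5%) were called, 12 higher and 7 lower, where 74.2% of 10819 tested genes were called, 35.8% higher and 38.4% lower. Without ARV-825 replicate 1 it was 16 members, 10 higher and 6 lower. The median change of the members was 0.12, against -0.01 over all tested genes. With OTX015, 26 of 29 members (89.7%) were called, 18 higher and 8 lower, where 69.6% of all tested genes were called, 36.1% higher and 33.5% lower. Here the median change was 0.33 for the members and 0.03 for all genes. A change of at least 0.5 was called for 10 members with ARV-825 (5 higher and 5 lower), against 38.7% of all genes, and for 11 with OTX015 (6 higher and 5 lower), against 31.7%.

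**Figure D1:**
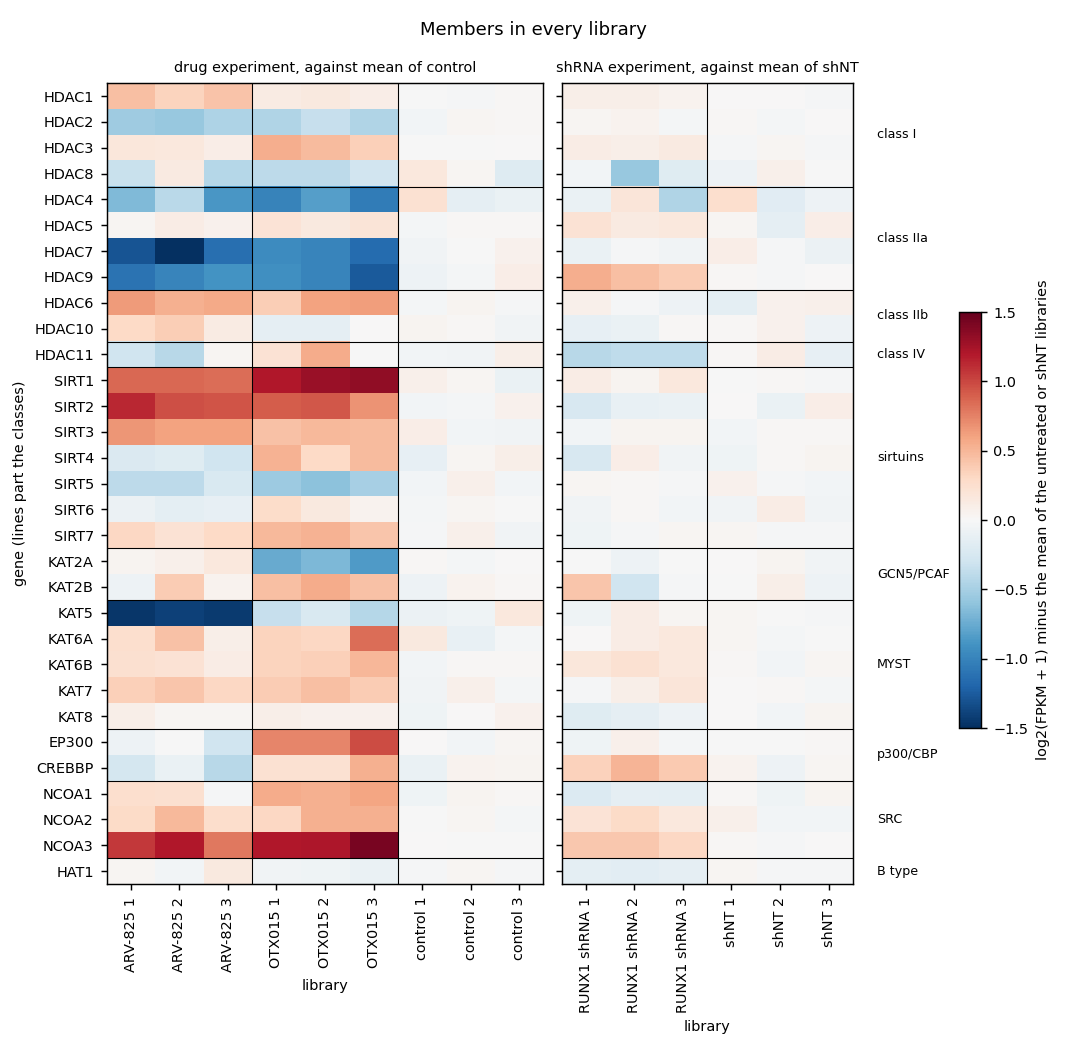
Each cell is log2(FPKM + 1) of a member gene (rows, grouped by class) in a library (columns), minus the mean of the control libraries (left panel) or of the shNT libraries (right panel). Red is higher and blue is lower. SIRT1, SIRT2 and NCOA3 were red and HDAC7 and HDAC9 blue with both compounds, KAT5 was darkest with ARV-825, and in the left panel KAT2A was blue only in the OTX015 columns.

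Class I enzymes moved in different directions. HDAC2 had 76.1, 74.1 and 79.5 FPKM with ARV-825 and 80.1, 86.3 and 80.2 FPKM with OTX015, against 107, 113 and 112 FPKM in control. All libraries of either compound lay below all control libraries. HDAC2 fell by 0.52 with ARV-825 (adjusted p = 1.5e-06) and by 0.42 with OTX015 (adjusted p = 1.09e-05) on the log2 scale in limma. Its partner HDAC1 rose with ARV-825 (75.9, 70.2 and 74.7 FPKM, change 0.41) and less with OTX015 (60.3, 61.3 and 59.4 FPKM, change 0.12), against 55.2, 54.5 and 56.1 FPKM in control. The mean HDAC2 level was thus close to that of HDAC1 with ARV-825 (76.6 and 73.6 FPKM) and far above it in control (110.3 and 55.3 FPKM). HDAC3 rose by 0.14 with ARV-825 and by 0.46 with OTX015. HDAC8, which deacetylates the cohesin ring, fell with OTX015 (-0.36, adjusted p = 0.0344) and had a change of -0.21 with ARV-825 (adjusted p = 0.181). Several of these calls lay near the threshold and did not hold when 1 library was left out. HDAC3 with ARV-825 had adjusted p = 0.0681 without ARV-825 replicate 1 and 0.0512 without control replicate 2. HDAC1 with OTX015 had 0.0583 without OTX015 replicate 2 and 0.0569 without control replicate 2. HDAC8 with OTX015 had 0.0836 to 0.125 without OTX015 replicate 1 or 2 or control replicate 1 or 2, and 0.0835 without a filter on low values. HDAC8 passed with ARV-825 without replicate 2 of that group (-0.38, adjusted p = 0.00527). HDAC8 shares 10.54% of its exon bases with AL133500.1 on its own strand.

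Class IIa held the deepest falls among the deacetylases. These enzymes have little deacetylase activity of their own, bind MEF2 transcription factors and carry HDAC3 complexes to them. HDAC7 had 3.35, 2.80 and 3.88 FPKM with ARV-825 and 4.56, 4.39 and 3.81 FPKM with OTX015, against 9.34, 9.61 and 10.1 FPKM in control (changes -1.31 ± 0.097 and -1.03 ± 0.097). HDAC9 had 1.71, 1.94 and 2.15 FPKM with ARV-825 and 2.10, 1.95 and 1.45 FPKM with OTX015, against 4.56, 4.74 and 5.28 FPKM in control (changes -0.997 ± 0.104 and -1.05 ± 0.104). HDAC4 had 5.54, 6.82 and 4.66 FPKM with ARV-825 and 4.17, 4.85 and 3.99 FPKM with OTX015, against 11.1, 8.46 and 8.69 FPKM in control (changes -0.65 ± 0.129 and -0.96 ± 0.129). For these 3 genes every library of either compound lay below every control library. Limma's adjusted p was 4.78e-07 and 4.3e-06 for HDAC7, 6.64e-06 and 6e-06 for HDAC9, and 0.000939 and 6.31e-05 for HDAC4, with ARV-825 and with OTX015. HDAC5, the fourth of the class, was not called with ARV-825, although its libraries lay above control (0.07, adjusted p = 0.221), and it rose by 0.18 with OTX015. HDAC5 was the most abundant of the class with either compound, at 17.0 ± 0.525 FPKM with ARV-825 and 18.5 ± 0.432 FPKM with OTX015, and also in control at 16.2 ± 0.362 FPKM. The 4 genes together summed to 27.9 ± 1.04 FPKM with ARV-825 and 28.9 ± 0.837 FPKM with OTX015, against 40.1 ± 0.862 FPKM in control.

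Class IIb and class IV differed from this. HDAC6, a mainly cytoplasmic deacetylase of tubulin, had 22.7, 20.9 and 21.6 FPKM with ARV-825 and 18.7, 22.0 and 22.4 FPKM with OTX015, against 13.9, 14.7 and 14.03 FPKM in control. The libraries of either compound lay above those of control, and HDAC6 rose by 0.58 ± 0.069 and 0.53 ± 0.069 (adjusted p = 1.77e-05 and 4.55e-05, limma). HDAC10, a polyamine deacetylase, rose with ARV-825 (0.27, adjusted p = 0.00626), while its change with OTX015 was -0.09 (adjusted p = 0.286). HDAC11, the sole class IV enzyme, had 0.417, 0.302 and 0.768 FPKM with ARV-825 and 1.02, 1.56 and 0.735 FPKM with OTX015, against 0.692, 0.682 and 0.844 FPKM in control. The ARV-825 and control libraries of HDAC11 overlapped, as did the OTX015 and control libraries. Without a filter on low values its changes against control were -0.23 (adjusted p = 0.259) and 0.26 (adjusted p = 0.224).

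With ARV-825, 4 of 6 tested sirtuins rose and 1 fell, where 35.8% of all tested genes rose and 38.4% fell. With OTX015, 5 rose and 1 fell, where 36.1% of all genes rose and 33.5% fell. SIRT1, the nuclear sirtuin that deacetylates histones and p53, had 12.5, 12.5 and 12.3 FPKM with ARV-825 and 16.1, 17.3 and 17.7 FPKM with OTX015, against 6.83, 6.60 and 5.92 FPKM in control. The groups did not overlap, with OTX015 highest, ARV-825 between and control lowest. SIRT2, a mostly cytoplasmic enzyme, had 22.0, 19.5 and 19.2 FPKM with ARV-825 and 18.8, 19.1 and 15.9 FPKM with OTX015, against 9.27, 9.36 and 10.0 FPKM in control. SIRT3, the main deacetylase of mitochondria, had 6.82, 6.53 and 6.51 FPKM with ARV-825 and 5.70, 5.94 and 5.86 FPKM with OTX015, against 4.30, 3.80 and 3.74 FPKM in control. For both genes the control libraries were the lowest and the ARV-825 libraries the highest. SIRT3 shares 7.78% of its exon bases with PSMD13 on the opposite strand, and the strand of the reads is not stated. PSMD13 averaged 112.6 FPKM with ARV-825 and 104.9 FPKM with OTX015, against 119.9 FPKM in control. The level of SIRT3 is therefore uncertain, and the part of PSMD13 reads in it was not tested. The changes with ARV-825 and with OTX015 were 0.86 ± 0.063 and 1.28 ± 0.063 for SIRT1 (adjusted p = 4.35e-07 and 3.6e-08, limma), 1.01 ± 0.078 and 0.84 ± 0.078 for SIRT2 (adjusted p = 6.64e-07 and 3.84e-06), and 0.63 ± 0.067 and 0.47 ± 0.067 for SIRT3 (adjusted p = 8.52e-06 and 0.000104). The 7 sirtuin genes summed to 83.3 ± 2.49 FPKM with ARV-825 and 92.25 ± 3.22 FPKM with OTX015, against 62.7 ± 1.49 FPKM in control.

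SIRT5 was the sirtuin that fell. This mitochondrial enzyme, better known for removing succinyl and malonyl groups, had 3.59, 3.56 and 4.14 FPKM with ARV-825 and 3.12, 2.92 and 3.24 FPKM with OTX015, against 4.85, 5.35 and 4.83 FPKM in control. The 3 groups were apart, with OTX015 lowest, and the changes against control were -0.34 ± 0.077 and -0.55 ± 0.077 (adjusted p = 0.00228 and 7.96e-05, limma). In the GENCODE 29 annotation 17.77% of its exon bases are shared with the antisense gene AL441883.1, and the strand of the reads is not stated, so reads of the 2 genes cannot be told apart. SIRT7, a nucleolar sirtuin, rose by 0.28 and 0.48. SIRT6, a chromatin deacetylase tied to DNA repair, rose with OTX015 (0.16, adjusted p = 0.0342) and had a change of -0.12 with ARV-825 (adjusted p = 0.0901). The SIRT6 call had adjusted p = 0.0625 to 0.151 without OTX015 replicate 1 or 2 or control replicate 1 or 3. SIRT4, a mitochondrial sirtuin, had 0.394, 0.424 and 0.324 FPKM with ARV-825 and 1.34, 0.999 and 1.26 FPKM with OTX015, against 0.488, 0.661 and 0.726 FPKM in control. Its OTX015 libraries were the highest and its ARV-825 libraries the lowest. Without a filter on low values SIRT4 had changes of -0.23 (adjusted p = 0.0295) and 0.44 (adjusted p = 0.00162) against control, on a scale that understates changes of genes this low.

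**Figure D2:**
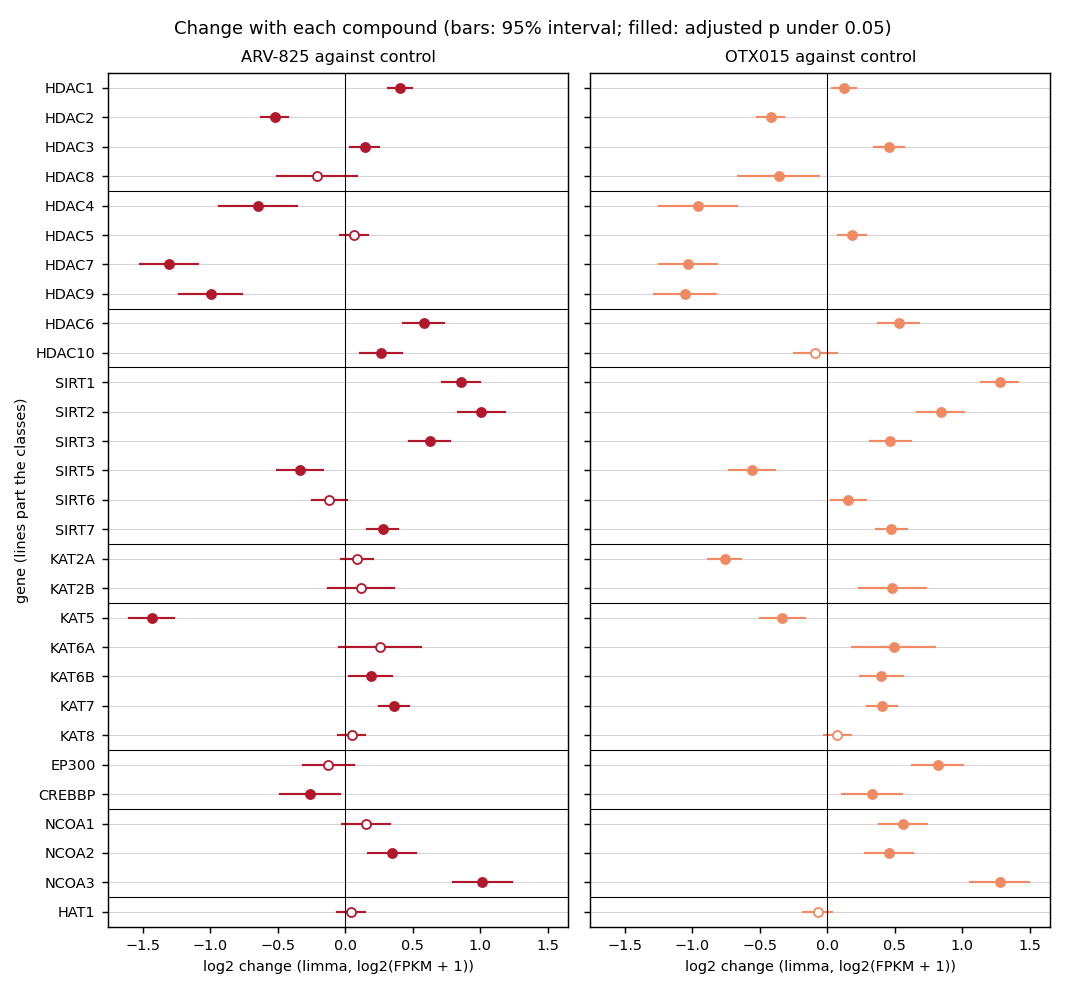
Points are limma log2 changes of the 29 tested members with ARV-825 (left) and OTX015 (right) against the same control libraries, on 1 axis range, with 95% intervals, and filled points were called. Changes ran from -1.43 (KAT5) to 1.02 (NCOA3) with ARV-825 and from -1.05 (HDAC9) to 1.28 (NCOA3) with OTX015.

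Among the acetyltransferases, KAT5 and KAT2A differed between the compounds in opposite directions. KAT5 (TIP60), which acetylates histones H4 and H2A and acts in DNA repair, had 7.71, 8.06 and 7.87 FPKM with ARV-825 and 17.9, 19.4 and 16.9 FPKM with OTX015, against 21.5, 21.8 and 25.8 FPKM in control. All 3 groups were apart, and the ARV-825 libraries were by far the lowest. KAT5 changed by -1.43 ± 0.075 with ARV-825 (adjusted p = 3.61e-08, limma), the deepest fall of any member, and by -0.33 ± 0.075 with OTX015 (adjusted p = 0.0023). Of its 2482 exon bases in GENCODE 29, 800 (32.23%) are shared with RNASEH2C on the opposite strand, so without stranded reads the levels of both genes are uncertain. RNASEH2C, a subunit of a nuclease that removes RNA from DNA, averaged 51.2 ± 2.53 FPKM with ARV-825 and 55.8 ± 4.24 FPKM with OTX015, against 35.4 ± 2.05 FPKM in control, and it rose in both comparisons (0.52 and 0.64). KAT2A (GCN5), the catalytic subunit of the SAGA and ATAC coactivators, had 29.2, 29.9 and 31.7 FPKM with ARV-825 and 16.4, 17.4 and 15.3 FPKM with OTX015, against 28.8, 27.9 and 28.6 FPKM in control. The OTX015 libraries lay far below the others, whereas those of ARV-825 lay closely above control. The change of KAT2A was 0.09 ± 0.054 with ARV-825 (adjusted p = 0.157, and 0.0216 after median-ratio rescaling, in which each library is rescaled by its median ratio to the geometric mean of all libraries) and -0.76 ± 0.054 with OTX015 (adjusted p = 4.97e-07). On its own strand KAT2A shares 13.03% of its exon bases with the gene AC099811.2. KAT2B, the alternative subunit in SAGA and ATAC, averaged 2.88 ± 0.653 FPKM with ARV-825 and 3.96 ± 0.232 FPKM with OTX015, against 2.55 ± 0.172 FPKM in control, and rose with OTX015 (0.48, adjusted p = 0.00256).

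KAT5 was the 1 MYST gene called lower with either compound, and 2 of the other 4 rose with ARV-825 and 3 with OTX015. Of all tested genes 35.8% rose and 38.4% fell with ARV-825, and 36.1% rose and 33.5% fell with OTX015. KAT7 (HBO1), which acetylates histone H3 at replication origins and gene bodies, rose with both compounds (0.36 and 0.40, adjusted p = 6.2e-05 and 3.51e-05, limma). KAT6B (MORF) rose by 0.19 with ARV-825 (adjusted p = 0.0331) and by 0.40 with OTX015 (adjusted p = 0.000478). The first of these calls had adjusted p = 0.0605 to 0.098 without ARV-825 replicate 1 or 2 or any 1 control replicate. KAT6A (MOZ), a partner in leukaemia fusion genes, rose with OTX015 (0.49, adjusted p = 0.00822), with 21.7, 21.4 and 31.3 FPKM in the OTX015 libraries, against 19.0, 15.7 and 16.7 FPKM in control, OTX015 replicate 3 being the highest. With ARV-825 its change was 0.26 (adjusted p = 0.11, and 0.0405 when fitted with these 2 groups only). KAT8 (MOF), the main acetyltransferase of lysine marks on histone H4 that open chromatin, was called in no comparison and had changes of 0.05 and 0.07. HAT1, at 64.9, 61.9 and 70.3 FPKM with ARV-825 and 61.5, 61.1 and 59.3 FPKM with OTX015, against 63.1, 65.1 and 63.0 FPKM in control, was called with neither compound (0.04, adjusted p = 0.444, and -0.07, adjusted p = 0.21).

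The p300 and CBP pair, which acetylates histones at active enhancers, was higher with OTX015 than in control. EP300 had 12.8, 13.5 and 10.8 FPKM with ARV-825 and 23.1, 23.2 and 27.7 FPKM with OTX015, against 13.6, 13.1 and 13.9 FPKM in control. The OTX015 libraries lay above the rest and the ARV-825 libraries overlapped control. EP300 had a change of -0.12 ± 0.087 with ARV-825 (adjusted p = 0.216, limma) and rose by 0.82 ± 0.087 with OTX015 (adjusted p = 1.01e-05). CREBBP, which encodes CBP, had 13.2, 14.9 and 11.8 FPKM with ARV-825 and 19.0, 19.0 and 23.8 FPKM with OTX015, against 14.99, 16.6 and 16.6 FPKM in control. Its 3 groups were apart, with ARV-825 below control, narrowly at the nearest libraries, and OTX015 above it. It was called lower with ARV-825 (-0.26 ± 0.1, adjusted p = 0.0348) and higher with OTX015 (0.33 ± 0.1, adjusted p = 0.0123). The ARV-825 call had adjusted p = 0.0705 to 0.128 without ARV-825 replicate 1 or 3 or control replicate 2 or 3, 0.0992 after median-ratio rescaling and 0.0732 without a filter on low values, at changes of -0.181 to -0.26. OTX015 replicate 3 was the highest library for both genes. EP300 and CREBBP together summed to 25.7 ± 2.91 FPKM with ARV-825 and 45.25 ± 5.39 FPKM with OTX015, against 29.6 ± 0.948 FPKM in control.

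All 3 SRC coactivators rose with OTX015 and NCOA2 and NCOA3 rose with ARV-825, led by NCOA3. Of all tested genes 36.1% rose with OTX015 and 35.8% with ARV-825. NCOA3 (AIB1), amplified in some breast cancers, had 13.9, 15.3 and 11.3 FPKM with ARV-825 and 15.4, 15.5 and 18.0 FPKM with OTX015, against 6.16, 6.10 and 6.09 FPKM in control. All libraries of either compound lay above all control libraries, and the change was 1.02 ± 0.099 with ARV-825 and 1.28 ± 0.099 with OTX015 (adjusted p = 3.86e-06 and 9.4e-07, limma). NCOA1 had 6.60, 6.52 and 5.30 FPKM with ARV-825 and 8.37, 8.25 and 8.60 FPKM with OTX015, against 5.12, 5.59 and 5.47 FPKM in control. It rose with OTX015 (0.56 ± 0.081, adjusted p = 0.000105), whereas with ARV-825 its change was 0.16 ± 0.081 (adjusted p = 0.103) and the libraries overlapped control. Without ARV-825 replicate 3, the lowest of its group, NCOA1 also passed with ARV-825 (0.24, adjusted p = 0.00755). NCOA2, a fusion partner of KAT6A in leukaemia, rose by 0.34 with ARV-825 and by 0.46 with OTX015 (adjusted p = 0.00253 and 0.000425).

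**Figure D3:**
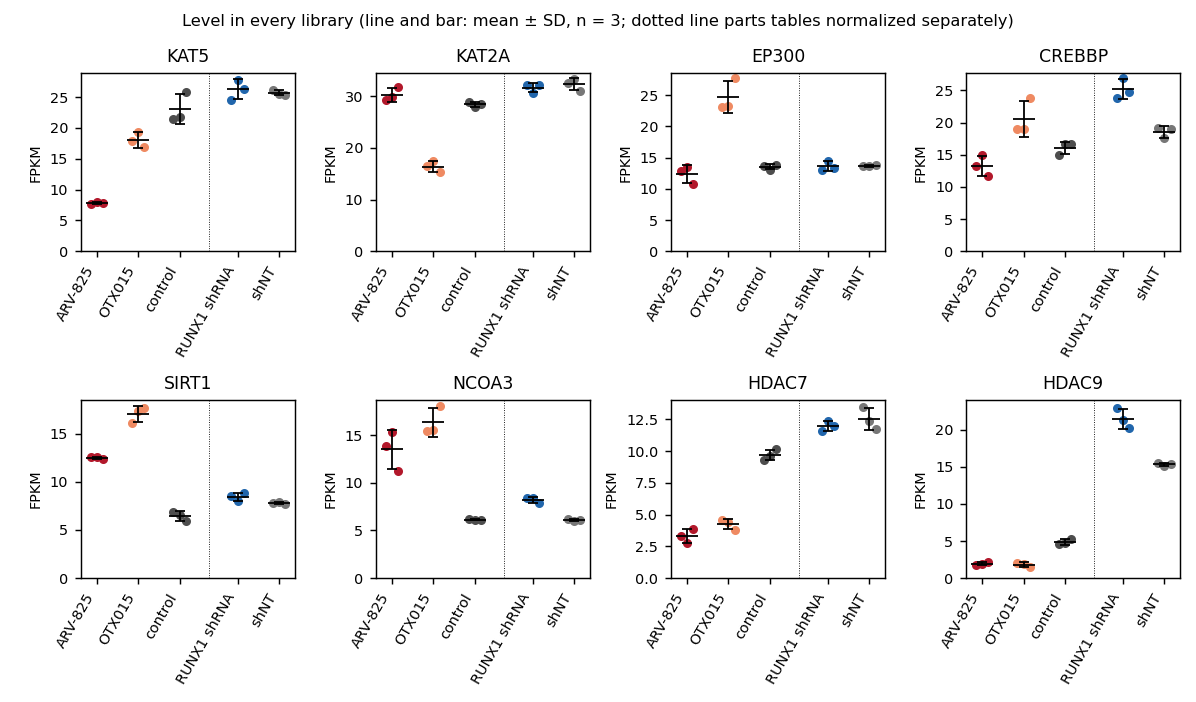
FPKM of 8 members in every library (points), with the mean and SD of each group (n = 3), the y axis starting at 0. The dotted line parts the drug table from the shRNA table, which were normalized separately. KAT5 was lowest with ARV-825 (7.71 to 8.06 FPKM), KAT2A was lowest with OTX015 (15.3 to 17.4 FPKM), and HDAC9 was highest in RUNX1 shRNA libraries (20.2 to 22.9 FPKM).

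The second question set the degrader against its parent inhibitor at the same dose and time. All 29 tested members were compared between ARV-825 and OTX015, and p-values were adjusted over all 10819 tested genes. Of the members, 16 (55.2%) were called, 4 higher and 12 lower with ARV-825 than with OTX015, where 58.1% of all genes were called, 24.7% higher and 33.4% lower. After median-ratio rescaling 18 members were called, 8 higher and 10 lower, so the share of higher calls was 25% in the values as deposited and 44.4% after rescaling. Over all tested genes that share was 42.5% as deposited and 50.8% after rescaling. The median difference of the members was -0.11, against -0.04 over all genes. A difference of at least 0.5 was called for 4 members, against 18.7% of all genes. They were KAT2A (0.85 ± 0.054, adjusted p = 1.55e-06), KAT5 (-1.10 ± 0.075, adjusted p = 2.28e-06), EP300 (-0.94 ± 0.087, adjusted p = 1.12e-05) and CREBBP (-0.59 ± 0.1, adjusted p = 0.000529), all in limma. In each of these genes every ARV-825 library lay on the same side of every OTX015 library. KAT2A was 1.80-fold higher with ARV-825 than with OTX015 on the log2(FPKM + 1) scale, and KAT5 was at 0.467 of its OTX015 value.

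Smaller differences passed for other members. SIRT1 (-0.42 ± 0.063), NCOA1 (-0.40 ± 0.081), KAT2B (-0.37), HDAC3 (-0.31), HDAC7 (-0.28 ± 0.097), SIRT6 (-0.27), NCOA3 (-0.26 ± 0.099), KAT6B (-0.21) and SIRT7 (-0.20) were lower with ARV-825 than with OTX015. HDAC10 (0.35), HDAC1 (0.28) and SIRT5 (0.22 ± 0.077) were higher. Several of these were lost when a library was left out, with limma's adjusted p at 0.0587 to 0.102 for HDAC7 (without ARV-825 replicate 1 or 2 or OTX015 replicate 1 or 2), 0.0677 to 0.104 for SIRT5 (ARV-825 replicate 3 or OTX015 replicate 1 or 2), and 0.0548 to 0.0603 for KAT2B (ARV-825 replicate 1 or OTX015 replicate 2). KAT6B had 0.0764 to 0.0945 (ARV-825 replicate 3 or OTX015 replicate 3) and NCOA3 0.0512 to 0.147 (any library of either compound but ARV-825 replicate 2). HDAC7, SIRT5, KAT6B and NCOA3 were also lost with only these 2 groups in the fit (adjusted p = 0.053 to 0.072) and with a replicate block (0.0514 to 0.0712). HDAC7 was the called member whose ARV-825 and OTX015 libraries overlapped. Median-ratio rescaling ended the calls of KAT6B (adjusted p = 0.0833) and NCOA3 (0.118), and leaving out the filter on low values ended those of HDAC7 (0.0605) and NCOA3 (0.0841).

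For the remaining members no difference between the compounds was called. The 95% interval of the difference was -0.20 to -0.002 for HDAC2, 0.03 to 0.60 for HDAC4 and -0.17 to 0.29 for HDAC9, all of which fell with both. It was -0.10 to 0.20 for HDAC6, -0.01 to 0.34 for SIRT2 and 0.01 to 0.31 for SIRT3, which rose with both. Of these genes the ARV-825 libraries of HDAC2 lay below, and those of SIRT2 and SIRT3 above, all OTX015 libraries. HDAC4 overlapped between the compounds and lay 0.31 higher with ARV-825 (adjusted p = 0.0594). It passed after median-ratio rescaling (0.355, adjusted p = 0.0424) and without ARV-825 replicate 3 (0.42, adjusted p = 0.0163) or OTX015 replicate 2 (0.38, adjusted p = 0.0491). SIRT2 and SIRT3 passed after rescaling (adjusted p = 0.0246 and 0.0286), as did HAT1 (0.16, adjusted p = 0.00666). HAT1 also passed without ARV-825 replicate 2 (0.15, adjusted p = 0.0198), HDAC2 without ARV-825 replicate 3 (-0.13, adjusted p = 0.0454) and HDAC5 without ARV-825 replicate 2 (-0.14, adjusted p = 0.0453). Intervals were -0.15 to 0.45 for HDAC8, -0.54 to 0.07 for KAT6A, -0.29 to 0.06 for NCOA2, -0.15 to 0.07 for KAT7 and -0.12 to 0.07 for KAT8. Below the filter, SIRT4 and HDAC11 were lower with ARV-825 than with OTX015 when tested without it (-0.67, adjusted p = 0.000308, and -0.49, adjusted p = 0.0386).

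**Figure D4:**
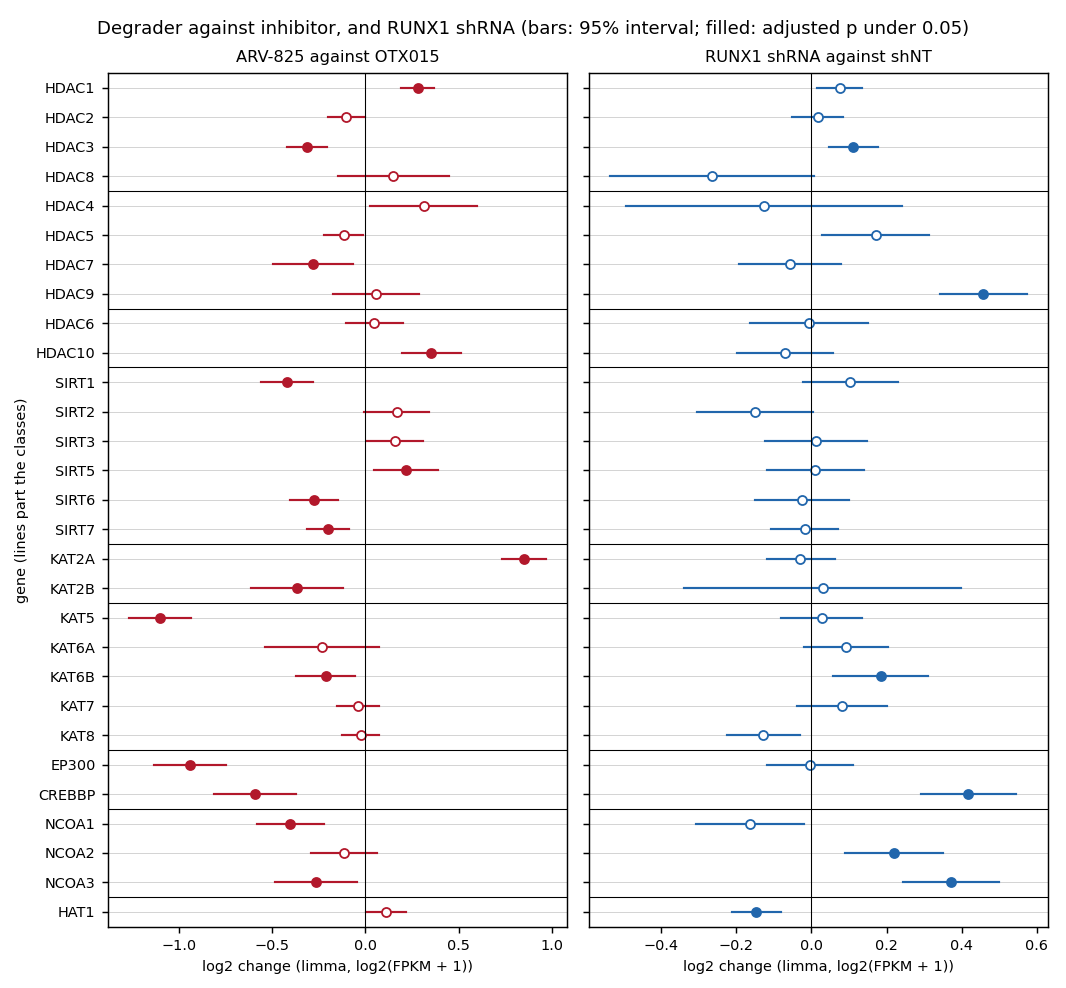
Limma log2 changes of the 29 tested members for ARV-825 against OTX015 (left) and RUNX1 shRNA against shNT (right), with 95% intervals, where filled points were called and the axis ranges of the panels differ. KAT2A lies farthest right in the compound panel at 0.85 and KAT5 (-1.10) and EP300 (-0.94) farthest left, while in the shRNA panel HDAC9 (0.46), CREBBP (0.42) and NCOA3 (0.37) lie highest.

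The third comparison asked which of these genes differ 72 h after transduction with RUNX1 shRNA. Of 29 tested members 7 (24.1%) were called, 6 higher and 1 lower, where 27.4% of 10925 tested genes were called, 13.5% higher and 13.8% lower. Without RUNX1 shRNA replicate 1, 5 members were called, 3 higher and 2 lower, and without RUNX1 shRNA replicate 3, 8 were called, 6 higher and 2 lower. The median change was 0.01 for the members and -0.01 for all genes. No member had a change of 0.5 or more, called or not, whereas 3.23% of all genes were called with one. HDAC9 had 22.9, 21.3 and 20.2 FPKM with RUNX1 shRNA, against 15.5, 15.1 and 15.4 FPKM with shNT. CREBBP had 23.9, 26.9 and 24.8 FPKM with RUNX1 shRNA, against 19.2, 17.5 and 19.0 FPKM with shNT. NCOA3 had 8.39, 8.41 and 7.83 FPKM with RUNX1 shRNA, against 6.21, 6.01 and 6.13 FPKM with shNT. In all 3 genes every RUNX1 shRNA library lay above every shNT library, with changes of 0.46 ± 0.051 (adjusted p = 0.000456, limma), 0.42 ± 0.055 (adjusted p = 0.00107) and 0.37 ± 0.056 (adjusted p = 0.00204). The level of HDAC9 in shNT was 15.4 ± 0.205 FPKM, against 4.86 ± 0.375 FPKM in untreated control, a gap set across tables that were normalized separately and that also differ in transduction and time.

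NCOA2 (0.22, adjusted p = 0.0225), KAT6B (0.19, adjusted p = 0.0374) and HDAC3 (0.11, adjusted p = 0.0213) rose by less in limma. HAT1 was the 1 member called lower, at 57.4, 57.1 and 58.3 FPKM with RUNX1 shRNA, against 65.4, 63.2 and 63.0 FPKM with shNT (-0.15, adjusted p = 0.00672), and its groups did not overlap. The calls of NCOA2, KAT6B and HDAC3 did not hold in several fits with 1 library left out. Adjusted p was 0.0503 to 0.0832 for NCOA2 without RUNX1 shRNA replicate 1 or 2 or shNT replicate 2 or 3, and 0.0701 to 0.125 for KAT6B without any 1 library but RUNX1 shRNA replicate 3. For HDAC3 it was 0.0531 to 0.0788 without RUNX1 shRNA replicate 1 or shNT replicate 1 or 3, and 0.0578 without a mean-variance trend in the fit. No tested sirtuin was called (0 of 6, adjusted p = 0.137 to 0.909, and 0 of 6 at unadjusted p under 0.05). HDAC7, HDAC4 and KAT5 had changes of -0.06 ± 0.059, -0.13 ± 0.161 and 0.03 ± 0.048, with 95% intervals of -0.19 to 0.08, -0.49 to 0.24 and -0.08 to 0.14. EP300, the partner of CREBBP, had 13.1, 14.5 and 13.3 FPKM with RUNX1 shRNA, against 13.6, 13.6 and 13.8 FPKM with shNT (-0.004 ± 0.051, 95% interval -0.12 to 0.11). KAT2A had 32.3, 30.6 and 32.2 FPKM with RUNX1 shRNA, against 32.6, 33.4 and 31.1 FPKM with shNT (-0.03 ± 0.04, adjusted p = 0.628). NCOA1, the remaining SRC gene, went the other way from NCOA2 and NCOA3. Its RUNX1 shRNA libraries (4.54 ± 0.154 FPKM) all lay below those of shNT (5.20 ± 0.224 FPKM), but it was not called (-0.16, adjusted p = 0.0888, limma). NCOA1 passed without a mean-variance trend (adjusted p = 0.0375), and HDAC1 with no filter on low values (0.075, adjusted p = 0.0438). HDAC8 passed without RUNX1 shRNA replicate 1 (-0.38, adjusted p = 0.0455), HDAC5 without shNT replicate 3 (0.22, adjusted p = 0.0476) and KAT8 without RUNX1 shRNA replicate 3 (-0.155, adjusted p = 0.038). HDAC11, under the filter, had 0.297, 0.327 and 0.325 FPKM with RUNX1 shRNA, against 0.750, 0.868 and 0.583 FPKM with shNT (-0.39, adjusted p = 0.0138 without the filter), and SIRT4 had a change of -0.06 (adjusted p = 0.697). Of the 7 members called with RUNX1 shRNA, HDAC3, KAT6B, NCOA2 and NCOA3 were also called higher with both compounds, CREBBP was called lower with ARV-825 and higher with OTX015, HDAC9 was called lower with both, and HAT1 was called with neither.

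The enzymes work in complexes, so the genes of their partners and of their cofactor supply were read from 12 lists of 132 genes matched in the tables. With ARV-825, 92 of 124 tested list genes (74.2%) were called, 38 higher and 54 lower. With OTX015, 96 (77.4%) were called, 54 higher and 42 lower. Between ARV-825 and OTX015, 85 (68.5%) were called, 24 higher and 61 lower with ARV-825. Of all genes, 74.2% were called with ARV-825 (35.8% higher and 38.4% lower), 69.6% with OTX015 (36.1% and 33.5%) and 58.1% between them (24.7% and 33.4%), and the counts of each list below stand against these shares. With RUNX1 shRNA, 45 of 125 (36%) were called, 28 higher and 17 lower, against 27.4% of all genes (13.5% and 13.8%), and 25 without shNT replicate 3, 17 higher and 8 lower.

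Around KAT5 the subunits of the TIP60 complex were mostly lower: 12 of 15 fell and 1 rose with ARV-825 (median -0.36), and 9 fell and 4 rose with OTX015 (median -0.24), against the 38.4% and 33.5% of all genes that fell. The reader of acetylated lysine YEATS4 changed by -1.17 and the histone variant loader VPS72 by -1.10 with ARV-825 (adjusted p = 2.09e-08 and 9.05e-08, limma). The bromodomain subunit BRD8 rose, by 0.92 with ARV-825 and 0.81 with OTX015, and 9 of the 15 were lower with ARV-825 than with OTX015 and 2 higher. With RUNX1 shRNA 2 rose and 3 fell. Around KAT2A and KAT2B, the SAGA and ATAC subunits split: 4 of 22 rose and 10 fell with ARV-825, 10 rose and 6 fell with OTX015, and 3 were higher and 13 lower with ARV-825 than with OTX015. The adaptor TADA1 changed by -1.37 with ARV-825 and lay -1.03 from OTX015, and the deubiquitinase adaptor ATXN7L3 rose by 0.85 with OTX015. With RUNX1 shRNA 7 of the 22 rose and 1 fell, among them ATXN7 (0.40) and DR1 (0.28). Of 8 tested subunits of the MOZ, MORF and HBO1 complexes, 4 rose and 3 fell with either compound, 3 were higher and 4 lower with ARV-825 than with OTX015, and 0 were called with RUNX1 shRNA in limma (1 of 8 at unadjusted p under 0.05). JADE2, a scaffold of HBO1, averaged 1.08 ± 0.294 FPKM with ARV-825 and 1.97 ± 0.471 FPKM with OTX015, against 9.57 ± 0.415 FPKM in control (-2.36 and -1.84). Of 9 MSL and NSL subunits, partners of KAT8, 3 rose and 3 fell with ARV-825, 4 rose and 3 fell with OTX015, 1 was higher and 4 lower with ARV-825 than with OTX015, and 4 rose and 1 fell with RUNX1 shRNA. KANSL2 averaged 32.0 ± 2.20 FPKM with ARV-825 and 24.1 ± 1.39 FPKM with OTX015, against 11.4 ± 0.154 FPKM in control.

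Around HDAC1 and HDAC2, 8 of 16 SIN3 subunits rose and 5 fell with ARV-825, 11 rose and 3 fell with OTX015, 2 were higher and 8 lower with ARV-825 than with OTX015, and 2 rose and 2 fell with RUNX1 shRNA. The histone reader ING1 rose with both compounds (0.78 and 1.08) and FAM60A fell (-1.13 and -0.88). Of 10 NuRD subunits 3 rose and 6 fell with ARV-825, 2 rose and 5 fell with OTX015, and 2 were higher and 5 lower with ARV-825 than with OTX015. With RUNX1 shRNA 3 of the listed NuRD subunits rose and 0 fell, including the helicases CHD3 (0.27) and CHD4 (0.18). Each gene was put in 1 list only, so a subunit shared between complexes was counted once. RBBP7, counted with SIN3, fell with RUNX1 shRNA (-0.15). MTA3 fell with both compounds (-1.44 and -1.12). CoREST subunits had 2 higher and 3 lower of 8 with ARV-825, 5 higher and 2 lower with OTX015, 0 higher and 4 lower with ARV-825 relative to OTX015, and 2 higher and 1 lower of 9 with RUNX1 shRNA. The MiDAC subunit TRERF1 fell with both compounds (-1.45 and -1.88) and rose with RUNX1 shRNA (0.33). Of the 3 MiDAC genes, 0 rose and 1 fell with ARV-825, 2 rose and 1 fell with OTX015, 1 was higher and 2 lower between the compounds, and 2 rose and 0 fell with RUNX1 shRNA. Around HDAC3, the NCOR and SMRT list had 1 higher and 2 lower of 5 with ARV-825, 1 and 3 with OTX015, 1 and 2 between the compounds, and 1 and 0 with RUNX1 shRNA. GPS2, a subunit of that corepressor, rose with ARV-825 and OTX015 (0.90 and 1.10), and TBL1XR1 fell (-0.99 and -1.10).

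Partners of the class IIa enzymes had 2 higher and 5 lower of 9 with ARV-825, 3 and 3 with OTX015, and 0 and 6 with ARV-825 relative to OTX015. MEF2D, a DNA-binding partner, changed by -0.95 and -0.43, and the kinase gene PRKD3 by -0.97 and -0.50. With RUNX1 shRNA 4 rose and 2 fell, including MEF2C (0.57, adjusted p = 3.24e-05, limma) and YWHAG, which encodes an adaptor that holds phosphorylated class IIa enzymes in the cytoplasm (-0.77, adjusted p = 8.47e-07). For the acetyl-CoA that acetyltransferases consume, 5 of 9 supply genes rose and 1 fell with ARV-825, 4 rose and 2 fell with OTX015, and 6 were higher and 1 lower with ARV-825 than with OTX015. The acetate-activating enzyme ACSS2 rose with both (0.90 and 0.67), and its mitochondrial counterpart ACSS1 fell with OTX015 (-0.71) and with RUNX1 shRNA (-0.82). With RUNX1 shRNA 0 of the 9 rose and 5 fell. For NAD, which sirtuins consume, 5 of 10 genes of supply and of sirtuin regulation rose and 3 fell with ARV-825, 4 rose and 2 fell with OTX015, 3 were higher and 3 lower between the compounds, and 1 rose and 2 fell with RUNX1 shRNA. NMNAT1, the nuclear NAD synthase, rose by 1.55 with ARV-825 and 1.08 with OTX015, and RPS19BP1, which encodes an activator of SIRT1, fell (-0.71 and -0.51).

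**Figure D5:**
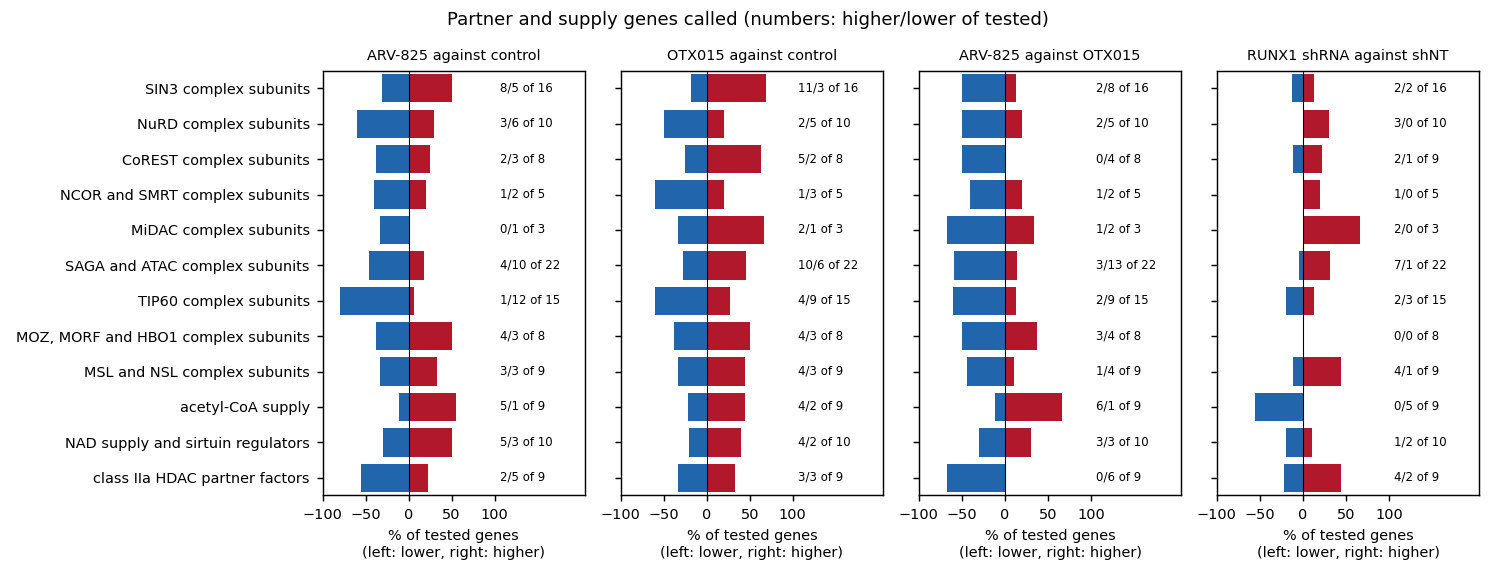
Bars give the percent of tested genes of each list that limma called higher (red, right) or lower (blue, left) in each comparison, with the counts beside them. TIP60 subunits reached 12 lower of 15 with ARV-825, SIN3 subunits 11 higher of 16 with OTX015, and acetyl-CoA supply genes 5 lower of 9 with RUNX1 shRNA.

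Summed over each family, the sirtuin sum and the sum of the SRC coactivators were higher with both compounds and the HDAC sum was lower. The 11 HDAC genes summed to 267.9 ± 1.82 FPKM with ARV-825 and 266.0 ± 5.80 FPKM with OTX015, against 283 ± 1.42 FPKM in control. HDAC2 alone averaged 76.6 FPKM with ARV-825 and 82.2 FPKM with OTX015, against 110.3 FPKM in control. That fall was larger than the fall of the sum, so the sum does not show a fall across the family. The 13 acetyltransferase and coactivator genes summed to 242.9 ± 6.01 FPKM with ARV-825 and 267.1 ± 10.3 FPKM with OTX015, against 235.4 ± 3.36 FPKM in control. With ARV-825 the libraries of this sum (241.5, 249.4 and 237.6 FPKM) overlapped control (232.0, 235.5 and 238.7 FPKM). The SRC genes, part of this sum, alone summed to 30.6 ± 3.61 FPKM with ARV-825 and 36.7 ± 2.41 FPKM with OTX015, against 19.9 ± 0.318 FPKM in control. With ARV-825 the SRC rise was larger than the rise of the whole sum, so that sum does not show a rise across the acetyltransferases. With RUNX1 shRNA the HDAC sum was 354.2 ± 6.81 FPKM, against 342.1 ± 2.16 FPKM with shNT, the sirtuin sum was 70.8 ± 1.73 against 71.8 ± 0.42 FPKM, and the acetyltransferase and coactivator sum was 254.7 ± 5.24 against 249.4 ± 3.75 FPKM. These sums (mean ± SD, n = 3 libraries per group) were not tested, and messenger RNA does not measure enzyme amount or activity.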

How the data were processed

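RNA of 15 OCI-AML5 libraries was sequenced by the authors. The deposited values, in 1 table for each experiment, were read as FPKM, quantile normalized within each table, judged from the values, the tables' names and the listed tools, since no header states the unit. TopHat2 2.0, Cufflinks 2.0 and hg19 are listed in the submitters' processing notes, while strand, poly(A) selection and annotation are not given in the sources used here. Quantile normalization aims at a like distribution in all libraries, but the protein-coding values still differed between libraries. Their median was 1.795 to 1.924 FPKM with ARV-825 and 2.056 to 2.098 FPKM with OTX015, against 2.151 to 2.205 FPKM in control. A change in total RNA cannot be seen in such values, and depth is unknown. From 19620 entries per table, 16 pseudoautosomal Y copies were left out. Values became log2(FPKM + 1), and genes with a table mean of at least 1 FPKM were fitted in limma 3.58.1 (R 4.3.3, empirical Bayes with a mean-variance trend), the 9 drug libraries in 1 fit and the 6 shRNA libraries in another, with Benjamini-Hochberg adjustment over all genes of a comparison. The fit was run on simulated data with independent noise and far fewer changed genes than were called here. That setting differs from these data, so the run cannot show how well the calls here are calibrated. The pseudocount of 1 makes changes of low genes look smaller than they are. Since no label names separate cultures, p-values measure the spread between libraries, which may be technical. The 31 members and the 12 lists of partner and supply genes were chosen with earlier results of these data known. Members with a called change of at least 0.5 in any comparison, and the 3 highest and 3 lowest in control, are given by library in the drug experiment. KAT2B with the compounds is given as group means. In the shRNA experiment only some of these members are given by library. From each list at most 3 called genes per comparison with the largest change were eligible to be named. Alternatives were a pseudocount of 0.1 or 5, no filter or a mean of at least 5 FPKM, median-ratio rescaling, no trend, fits of only the groups compared, a replicate block, and each library left out. Python 3.11.15 with pandas 2.3.3 and matplotlib 3.10.9 was used for tables and figures. Promoter sequences are from RefSeq and exon overlaps from GENCODE 29.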

Additional observations from a re-analysis of the deposited data

Results flagged for a closer look

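CREBBP stood out because it was called lower with ARV-825 and higher with OTX015, against the same 3 control libraries. The ARV-825 call was lost, at adjusted p = 0.0512 to 0.128 in limma, without ARV-825 replicate 1 or 3, without control replicate 2 or 3, after median-ratio rescaling, without a filter on low values and with a replicate block. It had 13.2, 14.9 and 11.8 FPKM with ARV-825 and 19.0, 19.0 and 23.8 FPKM with OTX015, against 14.99, 16.6 and 16.6 FPKM in control. The difference between ARV-825 and OTX015, tested directly in limma, was -0.59 on the log2 scale (adjusted p = 0.000529), and all 3 ARV-825 libraries lay below all 3 OTX015 libraries. OTX015 replicate 3 was the highest of its group for CREBBP, and without it the difference was -0.486 (adjusted p = 0.00143), in a range of -0.67 to -0.486 over the libraries left out in turn.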

How the results depend on the processing

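Directions and sides of the threshold held in 1468 of the recomputed member changes, while 70 calls were lost, 21 were gained and 25 changes, none of them called, turned sign. Leaving out 1 library at a time gave 16 to 19 members called for ARV-825 against control, 23 to 26 for OTX015 against control, 13 to 17 for ARV-825 against OTX015 and 5 to 8 for RUNX1 shRNA against shNT. Partner and supply genes called with RUNX1 shRNA ran from 25 to 45, the low end without shNT replicate 3, and the cause was not tested. The other totals of called genes, members and partner genes moved by less than 1.5 times under every alternative run. Split by direction, members higher with ARV-825 than with OTX015 numbered 8 after median-ratio rescaling, against 4 as deposited. All genes higher in that comparison numbered 3215 after rescaling, against 2672 as deposited. With RUNX1 shRNA 2 members were lower, against 1, without RUNX1 shRNA replicate 1 or 3, with no filter and with no trend, and 3 were higher, against 6, without RUNX1 shRNA replicate 1. Partner genes lower with RUNX1 shRNA numbered 11 with no trend, against 17. All genes lower with RUNX1 shRNA numbered 978 without shNT replicate 2 and 966 without shNT replicate 3, against 1512.

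Uncalled changes turned sign under median-ratio rescaling for KAT7 (0.01) and KAT8 (0.025) between ARV-825 and OTX015 and for HDAC6 (0.007) and EP300 (0.01) with RUNX1 shRNA. Leaving out 1 library at a time gave, with ARV-825, -0.014 to 0.215 for KAT2B and -0.007 to 0.083 for HAT1. Between ARV-825 and OTX015 it gave -0.021 to 0.261 for HDAC8, -0.046 to 0.125 for HDAC9 and -0.031 to 0.096 for HDAC6. With RUNX1 shRNA it gave -0.004 to 0.041 for HDAC2, -0.28 to 0.038 for HDAC4, -0.077 to 0.033 for HDAC6, -0.005 to 0.04 for SIRT3, -0.009 to 0.04 for SIRT5, -0.053 to 0.029 for SIRT6, -0.039 to 0.006 for SIRT7, -0.161 to 0.196 for KAT2B, -0.014 to 0.072 for KAT5 and -0.046 to 0.024 for EP300.

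The replicate numbers did not pair the libraries: deviations of same-numbered libraries correlated at -0.321 to 0.061 in the drug table and -0.003 to 0.061 in the shRNA table. Those of differently numbered libraries correlated at -0.224 to 0.409 and at -0.07 to 0.022. The highest value, 0.409, was for ARV-825 replicate 2 with OTX015 replicate 3, so some deviations were shared under other numbers. With the number as a replicate block, 17, 25, 12 and 5 members were called in the 4 comparisons in the order above, and 7771, 7262, 5884 and 2585 genes. Depth is unknown and limits what can be said of members near 1 FPKM.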
